A study of Mus musculus with 162 samples.

Results

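Transient receptor potential (TRP) channels are cation channels of the cell membrane that open to temperature, irritants, lipids or osmotic stretch. The 9 sensory TRP channel genes described here are Trpa1, Trpv1, Trpv2, Trpv3, Trpv4, Trpm8, Trpm3, Trpm2 and Trpc5. They were chosen by name and were found by matching the Ensembl identifiers of the count tables to mouse symbols, which gave all 9 of the 46078 genes listed. The RNA-seq libraries came from adult male C57BL/6 mice painted once daily with MC903 or with ethanol alone. MC903 is calcipotriol, a vitamin D analog that produces a dermatitis resembling atopic dermatitis, and it was given at 0.2 mM in ethanol. The comparison throughout was MC903 against ethanol, within each tissue, day, genotype and injection group.

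The tissues were cheek skin, the trigeminal ganglion on the treated side, which holds the sensory neurons of the cheek, and thoracic spinal cord from mice treated on the rostral back. The labels give 20 µL for every library, whereas the study's methods give a larger volume for the back. Uninjected wild-type skin and ganglion were sampled at day 1, which was 6 hours after the first treatment, and at days 2, 5 and 8. At day 8 there were also mice injected with PBS, mice injected with 250 µg of the neutrophil-depleting antibody anti-Gr1 (aGr1), and uninjected mice of the genotypes TSLPR.KO (lacking the thymic stromal lymphopoietin receptor, gene Crlf2) and, in skin, BLT1.KO (lacking the leukotriene B4 receptor, gene Ltb4r1). TSLPR.KO skin and ganglion were sampled at day 12 as well, and spinal cord at day 8 from uninjected, PBS-injected and aGr1-injected wild-type mice. These made 20 comparisons over 143 libraries, with 2 to 8 libraries in a group. The day 8 uninjected wild-type libraries of skin and ganglion carry labels of 2 styles, called cohorts A and B here. In cohort A skin the labels repeat a replicate number within a group, so its libraries are named here by their tags, such as skin4.

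In sensory neurons, Trpa1 is opened by electrophilic irritants, Trpv1 by heat, acid and capsaicin, and Trpm8 by cool temperatures and menthol, so the 3 mark neurons that signal itch, pain and cold. Trpm3 answers heat and the steroid pregnenolone sulfate, Trpv2 is found in larger sensory neurons and in macrophages, and Trpc5 is a receptor-operated channel of neurons. Trpv3 and Trpv4 are warmth-responsive channels of keratinocytes, and gain-of-function mutations of Trpv3 cause hair loss and dermatitis in rodents. Trpm2 opens to ADP-ribose during oxidative stress and is abundant in phagocytes and in the nervous system. In bulk tissue, fewer cells of a type and less RNA per cell cannot be told apart.

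The 143 libraries held 15931871 to 67342879 counts on genes, with a median of 27640826, and levels are given as cpm, counts scaled to a common library size. The labels number the replicates but do not say that each is a separate animal, while the study's methods speak of replicates from treated and control mice. The p-values set each difference against the spread between these libraries. Crlf2 stood at 0 to 0.284 cpm in the TSLPR.KO libraries of day 8 against 2.33 to 4.04 cpm in wild-type ethanol skin of that day. At day 12, however, it stood at 0.469 to 1.24 cpm in TSLPR.KO skin and at 0.901 to 1.996 cpm in TSLPR.KO ganglion. Wild-type ganglion overlapped the latter, at 1.34 to 3.18 cpm at day 2 and 1.19 to 2.50 cpm at day 5. TSLPR.KO at day 12 is therefore named by its label. In wild-type ethanol ganglion of day 8, cohort B replicate 2 had 0.118 cpm of Crlf2 where the others had 3.18 to 3.61 cpm, and uninjected ethanol cord replicate 1 had 1.07 cpm where the others had 2.95 to 3.79 cpm. Ltb4r1 remained detectable in BLT1.KO skin, at 2.33 to 3.67 cpm with ethanol and 9.75 to 15.3 cpm with MC903. Libraries of wild-type day 12 and MC903 replicate 3 of day 2 skin, several of which held ganglion-like levels of Trpm8 under a skin label, were left out. Each MC903 comparison, each skin test of a difference between effects and each level by tissue was also computed without each library in turn.

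In the GENCODE annotation of mm10 the genes lie at chr1:14872648-14918862 (Trpa1), chr11:73234292-73261242 (Trpv1), chr11:62574486-62600515 (Trpv2), chr11:73267388-73300363 (Trpv3), chr5:114622152-114658421 (Trpv4), chr1:88277661-88389293 (Trpm8), chr19:22139046-22995410 (Trpm3), chr10:77907722-77970563 (Trpm2) and chrX:144381671-144688180 (Trpc5). Trpv1 and Trpv3 are neighbors on chromosome 11 in the same direction of transcription, with 6145 bases between the end of Trpv1 and the start of Trpv3 in the annotation. Promoter windows of 300 bases, from 250 before to 50 after the RefSeq start site in the build GRCm38.p6, were at hand for 8 of the 9 genes, Trpa1 being the one without. RefSeq starts need not be those of the gene spans above. The windows of Trpv3 and Trpv1 are shown because both genes rose in skin 6 hours after MC903, and that of Trpm8 because it was the most abundant of the 9 in the ganglion. Capitals mark the motif found in each: TGACTCA, the AP-1 site, in Trpv3 at position -81 from the start site; TGTGGT, the runt domain site, in Trpv1 at -50; and TATAAA, the TATA box, in Trpm8 at -30.
Trpv3, chr11:73267270-73267569, plus strand: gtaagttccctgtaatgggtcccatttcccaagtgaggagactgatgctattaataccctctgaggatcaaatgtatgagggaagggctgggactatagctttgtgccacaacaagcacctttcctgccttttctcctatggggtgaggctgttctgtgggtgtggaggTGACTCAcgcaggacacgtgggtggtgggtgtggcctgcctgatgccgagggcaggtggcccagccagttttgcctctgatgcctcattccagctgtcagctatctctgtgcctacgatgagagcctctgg
Trpv1, chr11:73233899-73234198, plus strand: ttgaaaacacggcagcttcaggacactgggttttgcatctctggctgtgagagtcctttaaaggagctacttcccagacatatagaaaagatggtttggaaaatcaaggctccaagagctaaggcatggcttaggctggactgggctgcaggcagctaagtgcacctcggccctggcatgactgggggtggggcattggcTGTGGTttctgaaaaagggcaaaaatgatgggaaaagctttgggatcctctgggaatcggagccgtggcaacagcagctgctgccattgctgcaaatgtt
Trpm8, chr1:88306485-88306784, plus strand: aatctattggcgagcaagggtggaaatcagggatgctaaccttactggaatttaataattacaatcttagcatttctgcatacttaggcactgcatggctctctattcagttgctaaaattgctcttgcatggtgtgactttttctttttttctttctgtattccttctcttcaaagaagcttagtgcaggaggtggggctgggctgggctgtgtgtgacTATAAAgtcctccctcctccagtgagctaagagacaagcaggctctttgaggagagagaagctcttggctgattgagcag

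Both strands of the 8 windows were searched for 5 motifs. The half-sites AGGTCA and AGTTCA, of the kind bound by the vitamin D receptor that MC903 activates, were in none of the 8 windows, while 16.04% and 14.02% of all 27025 promoter windows held them. Other spellings of such half-sites were not searched. TGAGTCA, which reads TGACTCA on the other strand, was in Trpv3 alone of the 8 and in 5.17% of all windows. TGTGGT was in Trpv1 and Trpv2 and in 16.92% of all windows, and TATAAA in Trpm8 and Trpm2 and in 14.16%. A match describes these letters in this window and nothing about binding.

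The first question was where each channel gene was expressed before MC903 came into play. Levels were taken as cpm per kilobase of exon in the day 8 uninjected wild-type ethanol libraries, 6 of skin, 5 of ganglion and 5 of cord. Skin was led by Trpv3 and Trpv4, ganglion by Trpm8, Trpv1, Trpa1 and Trpv2, and cord by Trpm2, Trpm3, Trpv2 and Trpc5. Of the 27 gene and tissue pairs compared, 23 differed by exact two-sided permutation tests with adjusted p-values of 0.00731 between skin and either other tissue and 0.00932 between ganglion and cord. Their raw p-values, 0.00433 and 0.00794, were the smallest these sample numbers allow.

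**Figure D1:**
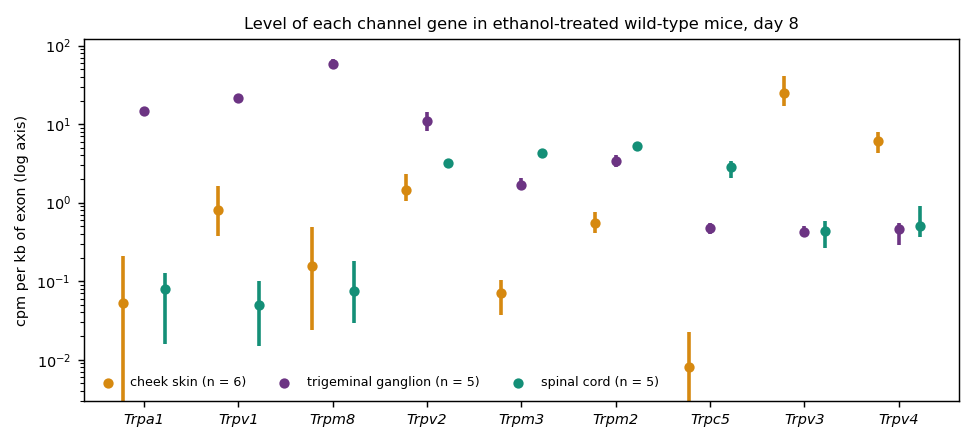
Level of each channel gene by tissue in day 8 uninjected wild-type ethanol libraries, on a log axis of cpm per kilobase of exon, for skin (n = 6), trigeminal ganglion (n = 5) and spinal cord (n = 5); points are means and vertical lines run from the lowest to the highest library. Trpv3 led in skin, Trpm8 in trigeminal ganglion and Trpm2 in spinal cord.

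In skin, Trpv3 stood at 24.7 ± 8.95 cpm per kilobase (mean ± SD, n = 6), and its lowest library, at 16.9, was above the highest of any other member. Trpv4 followed at 6.15 ± 1.52 cpm per kilobase, and its libraries also stayed clear of the next gene. From Trpv2 at 1.47 ± 0.446 down through Trpv1, Trpm2, Trpm8, Trpm3, Trpa1 and Trpc5, each gene's range overlapped that of the next in order. Genes were not tested against each other within a tissue, here or below. Trpa1 averaged 0.0529 cpm per kilobase with 0 to 31 counts in a library, and Trpc5 0.00801 with 0 to 4 counts, where 3 counts were taken as the limit that a count of 0 allows. Over all 60 skin libraries used, Trpa1 was at or under 3 counts in 41.

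In trigeminal ganglion, the cold receptor Trpm8 reached 58.96 ± 5.42 cpm per kilobase (n = 5), 381 times its mean level in skin and 795 times that in cord. Single libraries weigh on both figures, which became 682 without ethanol library skin3 of skin, with 82 counts of Trpm8, and 1225 without ethanol replicate 1 of cord, with 25 counts. Trpv1 stood at 21.8 ± 0.945 and Trpa1 at 14.8 ± 1.32 cpm per kilobase, with Trpv2 at 11.002 ± 2.60 overlapping Trpa1. Trpa1 was 281 times its skin mean, or 680 times without skin3, which held 31 counts where the 3 cohort B libraries held 0. It was 185 times its cord mean, and Trpv1 was 27.4 times its skin mean and 435 times its cord mean. Trpm2 at 3.41 ± 0.547 and Trpm3 at 1.70 ± 0.302 came next and did not overlap each other. Trpc5, Trpv4 and Trpv3, the keratinocyte channels among them, ended the order at 0.469, 0.458 and 0.424 cpm per kilobase with overlapping ranges.

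In spinal cord, Trpm2 at 5.32 ± 0.541 and Trpm3 at 4.27 ± 0.480 cpm per kilobase (n = 5) overlapped at the top. Trpv2 at 3.21 ± 0.265 and Trpc5 at 2.85 ± 0.514 formed a second overlapping pair, and Trpv4 and Trpv3 followed at 0.511 ± 0.223 and 0.439 ± 0.126. Trpa1, Trpm8 and Trpv1 closed the order, at 0.0804, 0.0742 and 0.0502 cpm per kilobase, with 2 to 25 counts in a library. The 4 pairs that did not pass were Trpa1 and Trpm8 between skin and cord, with adjusted p-values of 0.18 and 0.505, and Trpv3 and Trpv4 between ganglion and cord, with 1.0 and 0.799. Trpm8 overlaps the antisense gene 4930453O03Rik, Trpm3 overlaps C330002G04Rik and Gm27151, and Trpc5 overlaps Trpc5os on the other strand, and the sources used here do not state whether strand was used in counting.

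The second question was how MC903 moved these genes in the skin it was applied to. A gene passed in skin at an adjusted p-value under 0.05 in edgeR's quasi-likelihood test, and 9 of 71 member tests over 9 skin comparisons passed, 8 higher and 1 lower with MC903. At day 1, 2 of 8 members tested passed, where 13% of all genes did, and at day 5 it was 1 of 8 against 14.9%. At day 8 it was 1 of 9 against 23.4% in uninjected wild-type skin, 3 of 8 against 32.6% with aGr1, and 2 of 8 against 28.6% in BLT1.KO. No member passed at day 2 (0 of 8 against 0.257% of genes), with PBS (0 of 7 against 3.99%), in TSLPR.KO at day 8 (0 of 7 against 2.45%) or in TSLPR.KO at day 12 (0 of 8 against 10%). In those 4 comparisons, 1, 3, 0 and 1 members had an unadjusted p-value under 0.05, and DESeq2 called 0, 1, 0 and 0. In uninjected wild-type skin of day 8, where edgeR called Trpv2, DESeq2 called Trpm3 and Trpm2 as well. Such shares rest on at most 9 genes, and the results below are those of single channels.

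Trpv3, the keratinocyte warmth channel, passed in 4 of the 9 skin comparisons, each time higher with MC903. At day 1 its level in the ethanol libraries was 42.8, 51.5, 69 and 118.8 cpm, and in the MC903 libraries it was 154, 155, 180 and 181 cpm. The 2 groups did not overlap, as was the case for 19.4% of all genes tested there, and Trpv3 rose 2.38-fold, a log2 fold change of 1.25 ± 0.27 (SE; adjusted p = 0.0176, edgeR). Without MC903 replicate 1 or without ethanol replicate 3 it no longer passed, with an adjusted p-value of at most 0.0544.

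At day 5 Trpv3 stood at 22.2, 26.5 and 28.5 cpm with ethanol and at 80.5, 90.1 and 116.04 cpm with MC903. This was its largest change in skin, 3.71-fold, or 1.89 ± 0.19 on the log2 scale (adjusted p = 0.00105, edgeR), and the groups were apart, as were those of 36.4% of genes. At day 2, with 2 libraries a group and 42.5% of genes not overlapping, it was 50.1 and 60.6 against 82.01 and 89.3 cpm, 0.63 ± 0.23 on the log2 scale, which did not pass (adjusted p = 0.528, edgeR).

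By day 8 Trpv3 was not called in the uninjected wild-type mice. The ethanol libraries ranged from 101 to 251.99 cpm and the MC903 libraries from 93.2 to 177 cpm, overlapping almost fully, a change of -0.33 ± 0.24 on the log2 scale (adjusted p = 0.361, edgeR). The 2 cohorts leaned opposite ways, with -0.80 ± 0.30 for cohort A against 0.21 ± 0.19 for cohort B, and neither passed. With PBS it was 35.7, 98.4 and 173 cpm against 98.8 and 100.0 cpm, and in TSLPR.KO at day 8, where 32.8% of genes did not overlap, it was 96.5 and 231 cpm against 141, 164 and 191 cpm.

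In aGr1-injected mice Trpv3 was again higher with MC903, at 61.4, 69, 79.2 and 89.6 cpm against 13.4, 24.96, 32.7 and 51.1 cpm with ethanol. That was a log2 fold change of 1.29 ± 0.34 (adjusted p = 0.0181, edgeR), and it passed without each library in turn, with values of 1.04 to 1.68. In BLT1.KO skin the 3 ethanol libraries were tightly placed at 47.7, 48.3 and 48.7 cpm and the MC903 libraries stood at 99.3, 122.4 and 133.4 cpm. The log2 fold change there was 1.29 ± 0.14 (adjusted p = 0.000217, edgeR). Groups did not overlap for 32.1% of genes with aGr1 and for 44% in BLT1.KO.

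At day 12 in TSLPR.KO skin Trpv3 was 13.03, 33.98 and 41.9 cpm with ethanol and 28.9, 31.4, 31.9 and 36.6 cpm with MC903, a log2 fold change of 0.12 ± 0.33. The ethanol level of Trpv3 itself spanned 13.03 to 251.99 cpm over the skin libraries, a wider span than its MC903 level of 28.9 to 191 cpm. The summed level of 6 markers of the hair follicle inner root sheath (Krt25, Krt27, Krt28, Krt71, Krt73 and Tchh) varied widely in the same libraries. In BLT1.KO it was 58.5 to 1118 cpm with ethanol and 2905 to 8080 cpm with MC903, and at day 1 it was 12115 to 26288 and 19417 to 34687 cpm. In uninjected wild-type skin of day 8 it went the other way, from 12289 to 64791 cpm with ethanol to 3549 to 19887 cpm with MC903, and at day 2 from 7655 to 10734 cpm to 2207 to 3882 cpm. None of the 6 markers was at 0 in a group, and 1 of 6 rose in BLT1.KO while 5 of 6 fell at day 8 in uninjected wild-type skin.

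With aGr1 the inner root sheath sum was 294 to 8267 cpm with ethanol and 1980 to 2544 cpm with MC903, and 3 of the 6 markers fell. The summed level of 8 keratinocyte markers was 11256 to 15298 cpm with ethanol and 17006 to 22797 cpm with MC903 at day 5, and 5854 to 11888 against 11935 to 18576 cpm with aGr1. At day 1 the keratinocyte sum leaned lower with MC903, with groups that overlapped at 9422 to 11267 against 11067 to 13901 cpm, while Trpv3 was higher. The part of either cell population in the Trpv3 result was not tested.

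**Figure D2:**
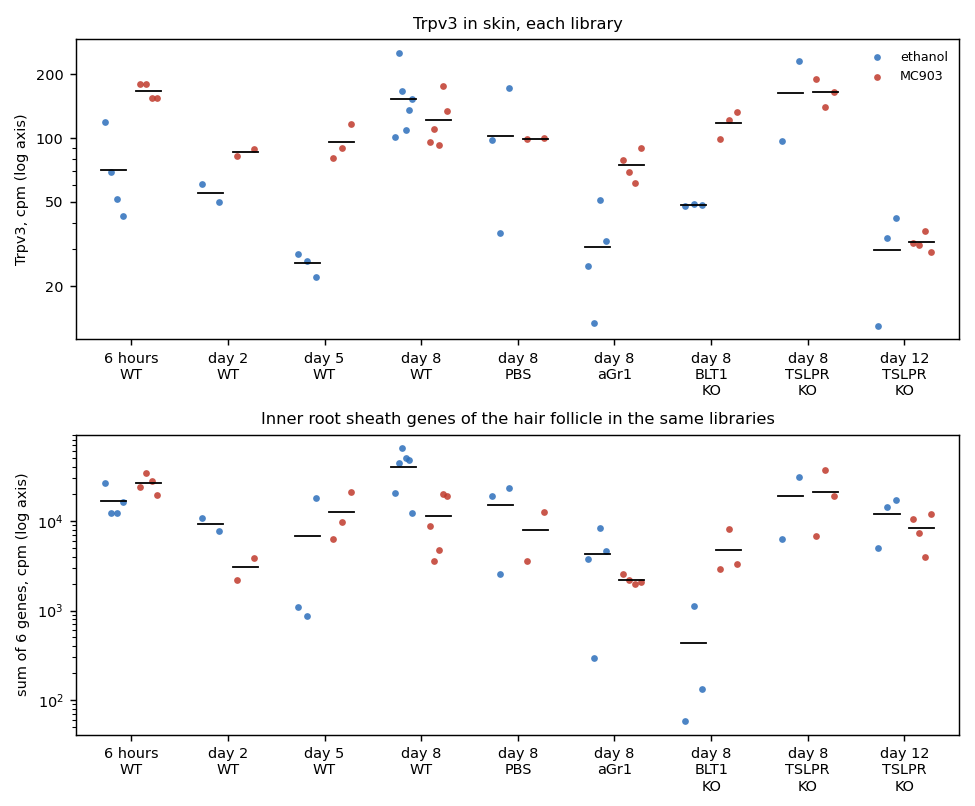
Trpv3 in each skin library by comparison (upper panel) and the summed level of the 6 inner root sheath markers in the same libraries (lower panel), both in cpm on log axes, with ethanol in blue and MC903 in red; each point is 1 library, each bar the group mean, and the first group, 6 hours, is day 1. For Trpv3 at day 1, day 2, day 5, with aGr1 and in BLT1.KO all MC903 libraries lie above all ethanol libraries. Day 2, with 2 libraries a group, was not called. At day 8 in uninjected wild-type skin the 2 groups overlap.

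Trpv1, the capsaicin and heat receptor, was low in skin but reached a mean of at least 1.30 cpm in every ethanol group. At day 1 it stood at 2.13, 2.32, 2.37 and 2.52 cpm with ethanol and at 3.74, 3.96, 3.97 and 4.78 cpm with MC903. All 4 MC903 libraries lay above all 4 ethanol libraries, in a comparison where the groups of 19.4% of genes did not overlap. Trpv1 rose by 0.81 ± 0.15 on the log2 scale (adjusted p = 0.0105, edgeR). It passed without each library in turn but not when all skin groups shared 1 estimate of the spread (adjusted p = 0.138, edgeR). At day 2 it was 1.33 and 1.39 against 2.05 and 2.83 cpm, which did not pass (adjusted p = 0.63, edgeR).

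From day 5 on Trpv1 showed no call in skin. At day 8 its log2 fold changes were -0.66 ± 0.31 uninjected, -0.75 ± 0.31 with PBS and -0.64 ± 0.24 with aGr1, with adjusted p-values of 0.142, 0.269 and 0.066 by edgeR. In cohort A of the uninjected mice alone it passed, at -1.23 ± 0.34 (adjusted p = 0.0421, edgeR), whereas cohort B gave 0.04 ± 0.37. The summed level of 13 sensory neuron markers in skin at day 1 was 40.2 to 48.1 cpm with ethanol and 39.9 to 55.1 cpm with MC903, with overlapping groups, and its part in the Trpv1 result was not tested. In the comparisons of skin not given above, at day 5, in BLT1.KO and in TSLPR.KO at days 8 and 12, the log2 fold change of Trpv1 lay between -0.69 and 0.07.

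Trpv4, the other keratinocyte channel, changed little. It passed with aGr1 alone, where ethanol libraries held 11.9, 12.1, 13.2 and 15.6 cpm and MC903 libraries 15.98, 16.9, 17.1 and 17.9 cpm. The log2 fold change of 0.36 ± 0.12 (adjusted p = 0.0427, edgeR) was the smallest called in skin, and in 6 of 8 fits that left out 1 library it no longer passed. At day 1 it was 19.1 to 29.5 cpm with ethanol and 28.99 to 34.8 cpm with MC903 (log2 fold change 0.31 ± 0.13, adjusted p = 0.143, edgeR). In the other 7 comparisons its log2 fold change lay between -0.32 and 0.30.

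Trpv2, found in macrophages as well as neurons, rose in uninjected wild-type skin at day 8. The 6 ethanol libraries held 5.12, 6.12, 6.22, 6.49, 6.97 and 10.7 cpm and the 5 MC903 libraries 10.5, 10.5, 10.6, 12.6 and 18.5 cpm. A single ethanol library reached into the MC903 range, and the log2 fold change was 0.83 ± 0.20 (adjusted p = 0.00965, edgeR). Cohort B alone gave 0.87 ± 0.23 and passed, and cohort A alone gave 0.78 ± 0.31 and did not (adjusted p = 0.123, edgeR). With PBS the groups were apart, as were those of 37.4% of genes, at 4.39 to 7.25 against 10.8 and 11.5 cpm, but Trpv2 did not pass (log2 fold change 0.98 ± 0.27, adjusted p = 0.117, edgeR). The summed level of 10 myeloid markers moved alongside, at 419 to 794 cpm with ethanol and 766 to 1794 cpm with MC903 in uninjected mice, with 8 of the 10 markers higher and none at 0. Its part in the Trpv2 result was not tested. In the other 7 skin comparisons the log2 fold change of Trpv2 lay between -0.52 and 0.34.

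Trpm2, the oxidative stress channel of phagocytes, rose in BLT1.KO skin. Its ethanol libraries held 7.43, 7.46 and 7.48 cpm and its MC903 libraries 11.03, 14.5 and 16.2 cpm, 0.90 ± 0.19 on the log2 scale (adjusted p = 0.0073, edgeR). It was also higher with MC903, without passing, at 3.76 to 6.27 against 11.02 and 11.4 cpm with PBS (1.08 ± 0.28, adjusted p = 0.0997) and at 5.30 to 10.3 against 8.24 to 12.2 cpm in uninjected wild-type skin of day 8 (0.48 ± 0.18, adjusted p = 0.0645), both by edgeR. The myeloid sum in BLT1.KO was 931 to 1084 cpm with ethanol and 1341 to 1457 cpm with MC903, with 7 of 10 markers higher, and with PBS it was 243 to 490 against 947 and 977 cpm. With aGr1 that sum overlapped, at 406 to 895 against 749 to 885 cpm, and so did Trpm2, at 3.67 to 11.96 against 7.77 to 12.5 cpm. The part of myeloid cells in the Trpm2 result was not tested. In the skin comparisons left, the log2 fold change of Trpm2 lay between -0.35 at day 2 and 0.61 in TSLPR.KO at day 12.

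Trpm3, the heat and neurosteroid channel, was the 1 member that fell in skin. With aGr1 it was 2.34, 3.52, 6.96 and 8.31 cpm with ethanol and 1.14, 1.51, 1.60 and 2.01 cpm with MC903. It fell by 1.75 on the log2 scale (SE 0.40, adjusted p = 0.00934, edgeR), and passed without each library in turn. Ethanol replicates 1 and 2 held the 6.96 and 8.31 cpm. They also held the most Trpv2 (12.3 and 8.64 cpm) and Trpm2 (11.96 and 9.83 cpm) of the aGr1 ethanol libraries. Leaving out 1 library at a time does not remove both, and the part of tissue composition in the fall of Trpm3 was not tested. Its log2 fold change was negative in 8 of the 9 skin comparisons, among them -1.07 ± 0.40 at day 5 (adjusted p = 0.114), -0.82 ± 0.30 in uninjected wild-type skin of day 8 (adjusted p = 0.0607) and -1.02 ± 0.46 in TSLPR.KO at day 12 (adjusted p = 0.201), none of which passed in edgeR. BLT1.KO was the exception, at 0.33 ± 0.32, and at day 1 the value turned from -0.23 ± 0.36 to 0.29 ± 0.22 without ethanol replicate 4. In uninjected wild-type skin of day 8 it passed without MC903 library skin4, at -1.01 (adjusted p = 0.0346, edgeR), without ethanol cohort B replicate 1, at -0.95 (adjusted p = 0.0188, edgeR), and with all libraries in DESeq2, at -0.83 (adjusted p = 0.0334). At day 2, with PBS and in TSLPR.KO at day 8 its log2 fold change lay between -0.65 and -0.40.

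Trpa1, Trpm8 and Trpc5 were low in skin, where 41, 22 and 49 of the 60 libraries held 3 counts or fewer of each. No skin library used held more than 0.908 cpm of Trpa1 or 2.40 cpm of Trpm8, and in BLT1.KO Trpa1 had 0 counts in all 6 libraries, each of which allows up to 3 counts. None of the 3 passed in a skin comparison, in which 4 comparisons had the counts to test Trpa1, 8 to test Trpm8 and 5 to test Trpc5. With 1 estimate of the spread over all skin groups Trpm8 passed in BLT1.KO (adjusted p = 0.00201, edgeR), on the counts given with the tests of differences. In uninjected wild-type skin of day 8 Trpm8 had 5 to 82 counts with ethanol and 4 to 23 with MC903, a log2 fold change of -1.07 that did not pass (adjusted p = 0.083, edgeR).

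The third question was whether the channels of the sensory neurons that supply the treated cheek changed. In trigeminal ganglion a gene passed at an adjusted p-value under 0.1, after the study's threshold, and 5 of 72 member tests passed over 8 comparisons, 4 higher and 1 lower with MC903. With PBS, 3 of 9 members passed where 3.36% of all genes did. With aGr1 it was 1 of 9 against 1.88%, and in TSLPR.KO at day 12 it was 1 of 9 against 0.304%. No member passed in uninjected wild-type mice at day 1 (0% of genes), day 2 (0%), day 5 (0.00823%) or day 8 (0.160%), or in TSLPR.KO at day 8 (0%). In those 5 comparisons, 0, 3, 2, 5 and 1 members had an unadjusted p-value under 0.05, and DESeq2 called 0, 0, 0, 3 and 0.

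Trpa1, the irritant receptor, was higher with MC903 in the PBS-injected mice. Its ethanol libraries stood at 56.2, 58.7 and 60.8 cpm and its MC903 libraries at 76.2, 80.7, 83.7 and 83.98 cpm. All 4 MC903 libraries were above all 3 ethanol libraries, which held for 13.1% of genes in either direction, and Trpa1 rose 1.39-fold, or 0.47 ± 0.06 on the log2 scale (adjusted p = 0.000812, edgeR). It passed without each library in turn, with log2 fold changes of 0.44 to 0.50. With 1 estimate of the spread over all ganglion groups, the adjusted p-value was 1.0 for each member called with PBS.

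In aGr1-injected mice Trpa1 rose as well, from 54.7, 61.5, 61.8 and 63.9 cpm with ethanol to 73.99, 75.7, 76.6 and 79.1 cpm with MC903. The groups were apart, as were those of 8.14% of genes, and the log2 fold change was 0.34 ± 0.08 (adjusted p = 0.0627, edgeR). The call was lost in 7 of 8 fits without 1 library, with values of 0.29 to 0.36 and adjusted p-values of up to 0.234.

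Uninjected wild-type mice of day 8 gave a log2 fold change of Trpa1 equal to that of PBS-injected mice, with a larger SE. The ethanol libraries held 55.2, 56.9, 60.6, 64.9 and 68.6 cpm and the MC903 libraries 68.7, 78.2, 79.1, 97.1 and 104 cpm. The groups lay next to each other without overlap, as did those of 0.902% of genes, and the log2 fold change of 0.47 ± 0.10 did not pass (adjusted p = 0.164, edgeR). Cohorts A and B gave 0.72 ± 0.13 and 0.29 ± 0.12, neither past the threshold. Without ethanol cohort B replicate 2, the library whose Crlf2 level went against its label, it passed at 0.54 (adjusted p = 0.0271, edgeR). With DESeq2 it passed with all libraries at 0.46 (adjusted p = 0.00754). The study, which used DESeq, had already named Trpa1 among the itch neuron markers in its ganglion changes.

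At day 5, where 8.99% of genes did not overlap between groups, Trpa1 was 44.8, 55.9 and 70.2 cpm with ethanol and 80.1, 95.3 and 116.9 cpm with MC903. The log2 fold change of 0.77 ± 0.20 was the largest of Trpa1 in the ganglion and did not pass (adjusted p = 1.0, edgeR). Same-numbered libraries varied together in that comparison, and a fit blocked on those numbers gave 0.78 ± 0.14, which passed (adjusted p = 0.073, edgeR), as did 54 genes where 2 passed without the block. The labels do not pair libraries across treatments, so the block rests on the correlations of these same libraries. The summed level of 13 sensory neuron markers was 4532 to 5585 cpm with ethanol and 5499 to 7414 cpm with MC903 there, so it leaned the same way, and none of the 13 was at 0 or passed. The summed level of 7 pituitary markers was 52.7, 5960 and 10873 cpm with ethanol and 56.9, 272 and 610.3 cpm with MC903, with none of the markers passing and 1 of the 7 at 0 counts in each group. The ethanol library with the most, replicate 2, had the lowest Trpa1, and without it the log2 fold change of Trpa1 was 0.63 ± 0.22 (adjusted p = 1.0, edgeR). The part of neither sum in the Trpa1 result was tested.

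At day 12 in TSLPR.KO mice Trpa1 stood at 55.7, 59.5, 63.6 and 70.7 cpm with ethanol and at 72.5, 88.97, 102 and 102 cpm with MC903. The log2 fold change was 0.55 ± 0.11 and missed the threshold (adjusted p = 0.118, edgeR). Same-numbered libraries varied together here too, though the labels do not pair them. With the replicate block Trpa1 passed at 0.54 ± 0.11 (adjusted p = 0.0546, edgeR). At day 8 in TSLPR.KO it was 54.4 and 73.6 cpm against 44.5 and 79 cpm, a log2 fold change of -0.05 ± 0.29 with 2 libraries a group.

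At the 2 earliest days the log2 fold change of Trpa1 was negative. At day 2 it was 73.02 and 111 cpm with ethanol and 57.8, 63.6 and 65.3 cpm with MC903 (log2 fold change -0.56 ± 0.19, adjusted p = 0.725, edgeR). Without ethanol replicate 2 a single ethanol library was left, assumed to vary like the MC903 libraries, and the value was -0.83, with 4899 genes past the threshold instead of 0. At day 1, where the groups of 5.47% of genes did not overlap, it was 53.8 to 92.3 cpm against 19.1 to 65.9 cpm, with a log2 fold change of -0.60 ± 0.34, and the sensory neuron sum of the MC903 libraries ran from 2494 to 6363 cpm. Without the 3 day 1 libraries with markers of other tissues or few neuronal counts, MC903 replicates 1 and 2 and ethanol replicate 1, it was -0.30 ± 0.12 (adjusted p = 0.934, edgeR).

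**Figure D3:**
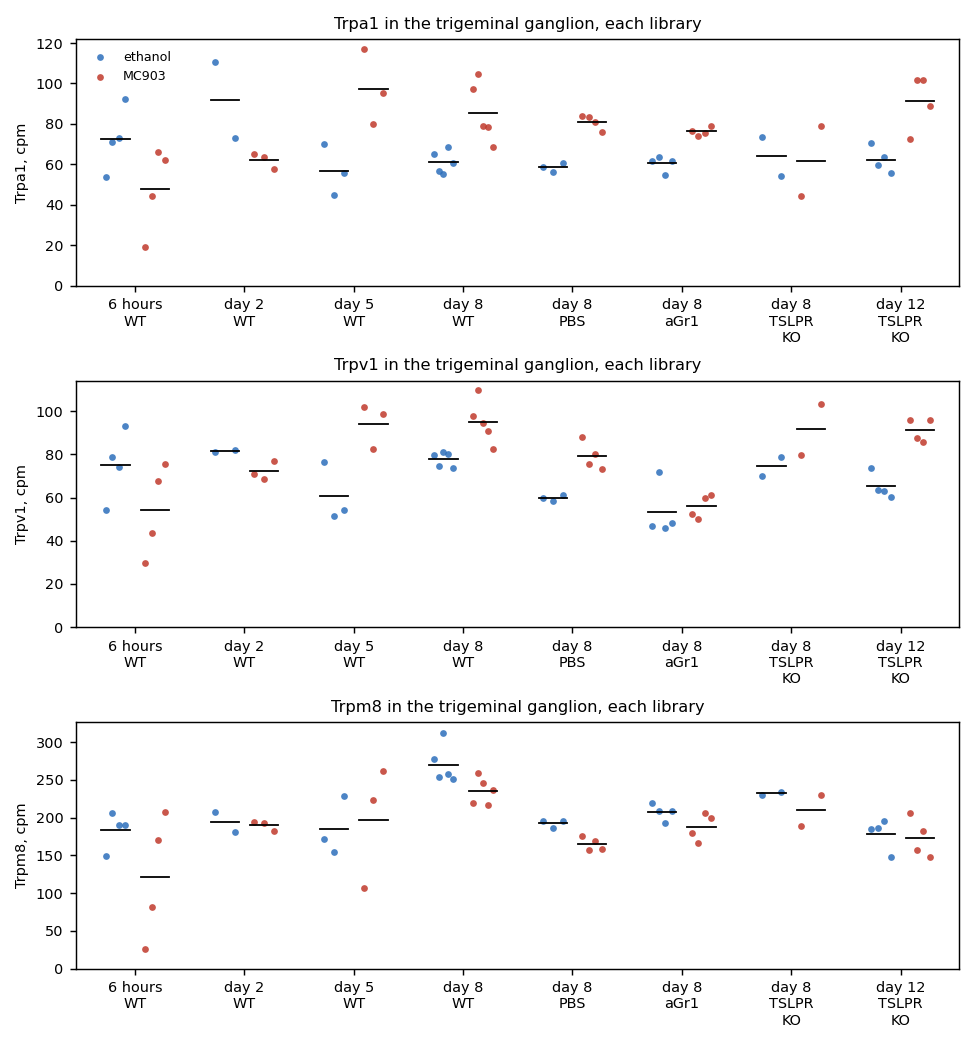
Trpa1, Trpv1 and Trpm8 in each trigeminal ganglion library by comparison, in cpm, with ethanol in blue and MC903 in red; each point is 1 library, each bar the group mean, and the first group, 6 hours, is day 1. With PBS the 4 MC903 libraries lie above the ethanol libraries for Trpa1 and Trpv1 and below them for Trpm8.

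Trpv1 rose in 2 ganglion comparisons. With PBS it was 58.5, 59.99 and 61.4 cpm with ethanol and 73.01, 75.6, 80.2 and 87.99 cpm with MC903, a log2 fold change of 0.40 ± 0.06 (adjusted p = 0.00654, edgeR). In TSLPR.KO at day 12 it was 60.2, 62.8, 63.6 and 73.9 against 85.9, 87.6, 95.7 and 95.8 cpm, or 0.49 ± 0.08 (adjusted p = 0.0381, edgeR). Groups were apart there for 5.35% of genes. Without ethanol replicate 2, 3 or 4 the day 12 call was lost, and with the replicate block it held (0.49 ± 0.06, adjusted p = 0.00656, edgeR).

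In uninjected wild-type ganglion of day 8 Trpv1 ran from 73.6 to 81.1 cpm with ethanol and from 82.4 to 110 cpm with MC903, again without overlap. Its log2 fold change of 0.29 ± 0.08 did not pass (adjusted p = 0.465, edgeR) but was called by DESeq2, as were Trpa1 and Trpv2. At day 5 it was 51.3, 54.3 and 76.3 cpm against 82.4, 98.5 and 102 cpm (0.64 ± 0.19, adjusted p = 1.0, edgeR), and with the block 0.65 ± 0.15 (adjusted p = 0.25, edgeR). With aGr1 it was 45.97, 47.03, 48.2 and 71.9 cpm against 49.8, 52.6, 59.9 and 61.3 cpm, a log2 fold change of 0.07 ± 0.14 that rests on the ethanol library at 71.9 cpm, replicate 2. Without that library it was 0.25 ± 0.09 (adjusted p = 0.263, edgeR). Over the 8 ganglion comparisons the log2 fold change of Trpv1 lay between -0.47 and 0.64, with 6 positive and 2 negative.

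Trpm8, the cold receptor and the most abundant member of the ganglion, was the 1 that fell. With PBS it went from 186, 195 and 196 cpm with ethanol to 157, 158, 169 and 176 cpm with MC903. It fell by 0.22 on the log2 scale (SE 0.05, adjusted p = 0.0461, edgeR), the smallest change called, and the call was lost in 4 of 7 fits that left out 1 library. In uninjected wild-type mice of day 8 it was 251 to 312 cpm against 216 to 259 cpm (-0.20 ± 0.08, adjusted p = 0.702, edgeR), and with aGr1 193 to 219 against 166 to 206 cpm (-0.14 ± 0.09, adjusted p = 0.531, edgeR). At day 1, MC903 libraries with 25.6 and 82.01 cpm stood below the others, which held 149 to 207 cpm. Over the 8 ganglion comparisons the log2 fold change of Trpm8 lay between -0.60 and 0.09, with 1 positive and 7 negative.

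Sensory neuron markers were read beside these results. With PBS the sum of the 13 sensory neuron markers was 9100 to 9152 cpm with ethanol and 9221 to 10435 cpm with MC903, with 3 of 13 higher and none lower. In TSLPR.KO at day 12 it was 8779 to 9791 against 9636 to 11725 cpm, with 2 of 13 higher. In uninjected wild-type mice of day 8 it was 5377 to 6904 against 6490 to 8098 cpm, with 1 of 13 higher, and with aGr1 9551 to 10664 against 9220 to 11491 cpm. The part of this sum in the Trpa1 and Trpv1 results was not tested.

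The remaining members did not pass in the ganglion. Trpv2 had its nearest miss in PBS-injected mice, at 46.9, 46.9 and 48.8 cpm against 50.6, 53.2, 54.5 and 62.1 cpm (log2 fold change 0.21 ± 0.07, adjusted p = 0.155, edgeR). Over the 8 ganglion comparisons its log2 fold change ran from -0.54 to 0.49, with 6 positive and 2 negative. Trpc5 was 2.38 and 4.11 cpm against 0.887, 1.19 and 1.32 cpm at day 2 (-1.53 ± 0.36, adjusted p = 0.725, edgeR), and -1.88 when ethanol replicate 2 was left out, which leaves the single ethanol library and the 4899 genes past the threshold noted for Trpa1. Its log2 fold change ran from -1.53 to 1.49 and was negative in 7 of 8 ganglion comparisons, the exception being TSLPR.KO at day 8. Trpm3 ran from 25.1 to 111.5 cpm and Trpm2 from 20.9 to 51.2 cpm over all ganglion libraries used, with log2 fold changes of -0.45 to 0.10 and -0.21 to 0.14. Trpv3 did not exceed 8.25 cpm and Trpv4 did not exceed 4.22 cpm in any ganglion library, with log2 fold changes of -0.59 to 0.74 and -0.14 to 1.08.

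Spinal cord gave no call: 0 of 27 member tests passed at an adjusted p-value under 0.05 in edgeR, where 12.2% of genes passed in uninjected mice, 0% with PBS and 11.3% with aGr1. At an unadjusted p-value under 0.05 there was 1 member test, Trpv4 with aGr1, and DESeq2 called none. Trpm3, the member with the most cpm there, was 87.4 to 110 cpm with ethanol and 88.8 to 108 cpm with MC903 in uninjected mice, a log2 fold change of -0.06 ± 0.09. Trpm2 was 55.7 to 69.7 against 56.5 to 58.7 cpm (-0.15 ± 0.08, adjusted p = 0.27, edgeR), and Trpc5 9.89 to 16.2 against 11.1 to 15.9 cpm (-0.04 ± 0.15).

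Trpv2 in uninjected cord was 11.9 to 14.98 against 13.9 to 18.6 cpm (0.20 ± 0.11, adjusted p = 0.28, edgeR). No member was apart between groups with aGr1, as 4.58% of genes were, and with PBS, where 37% were with 2 libraries a group, 3 of 9 members were. Trpv4 with aGr1 was 1.74 to 5.05 against 1.90 to 3.23 cpm (-0.46 ± 0.19, adjusted p = 0.131, edgeR). Trpv4 passed without aGr1 ethanol replicate 4 (-0.58, adjusted p = 0.0321, edgeR). With PBS, leaving out MC903 replicate 2 left 1 MC903 library, assumed to vary like the ethanol libraries, and Trpv2 then had 0.41, with 6075 genes past the threshold instead of 0. Trpv3 ran from 1.49 to 3.54 cpm over the cord libraries, with log2 fold changes of -0.27 to 0.10. Over the 3 cord comparisons the log2 fold change was -0.06 to -0.03 for Trpm3, -0.15 to 0.08 for Trpm2 and -0.13 to 0.01 for Trpc5. For Trpv2 it was 0.09 to 0.20 and for Trpv4 -0.46 to 0.06. Trpa1, Trpv1 and Trpm8 never exceeded 0.626, 0.355 and 1.29 cpm in cord.

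The fourth question was whether aGr1, TSLPR.KO or BLT1.KO altered the effect of MC903 on a channel gene, which needs a test of the difference between effects. Against uninjected wild-type mice of day 8, 3 of 27 member tests passed in skin, 0 of 18 in ganglion and 0 of 9 in cord. In skin it was 1 of 9 with aGr1, where 4.56% of genes passed, 2 of 9 in BLT1.KO, where 6.95% did, and 0 of 9 in TSLPR.KO, where 0.177% did. In ganglion 0% of genes passed in either test, and in cord 0.532%. In these 4 tests without a call, 1 member each in TSLPR.KO skin, aGr1 ganglion and TSLPR.KO ganglion, and none in cord, had an unadjusted p-value under 0.05, and DESeq2 called none.

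The MC903 effect on Trpv3 was greater by 1.64 ± 0.44 on the log2 scale with aGr1 (adjusted p = 0.0386, edgeR) and by 1.67 ± 0.35 in BLT1.KO (adjusted p = 0.00896, edgeR). Without each library in turn the aGr1 difference was 1.38 to 2.01 and was lost in 13 of 19 fits, with adjusted p-values of up to 0.0896, while the BLT1.KO difference was 1.45 to 1.85 and passed in 17 of 17. In BLT1.KO the MC903 mean of 118.4 cpm was near that of wild-type skin, 122.06 cpm, while the ethanol mean of 48.2 cpm was under that of wild-type skin, 153 cpm. With PBS-injected mice as the reference neither difference passed, at 1.37 (adjusted p = 0.53) and 1.48 (adjusted p = 0.368), and with cohort B alone as the reference the aGr1 difference was 1.08 (adjusted p = 0.261) and the BLT1.KO difference 1.16 (adjusted p = 0.0211), all by edgeR. In TSLPR.KO the difference for Trpv3 was 0.36 ± 0.46 (adjusted p = 0.787, edgeR). The BLT1.KO test also called Trpm8, but on 0 counts in the 3 ethanol libraries and 0, 2 and 15 counts in the MC903 libraries, so no fold is given.

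For Trpa1 in the ganglion the effect with aGr1 differed from that in uninjected mice by -0.12 ± 0.13 on the log2 scale (adjusted p = 0.874, edgeR) and that in TSLPR.KO by -0.52 ± 0.27 (adjusted p = 0.623, edgeR). Without the wild-type ethanol library whose Crlf2 level went against its label these were -0.20 ± 0.12 and -0.58 ± 0.26. For Trpv1 the differences were -0.21 ± 0.16 and 0.01 ± 0.17. None of these differences passed.

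**Figure D4:**
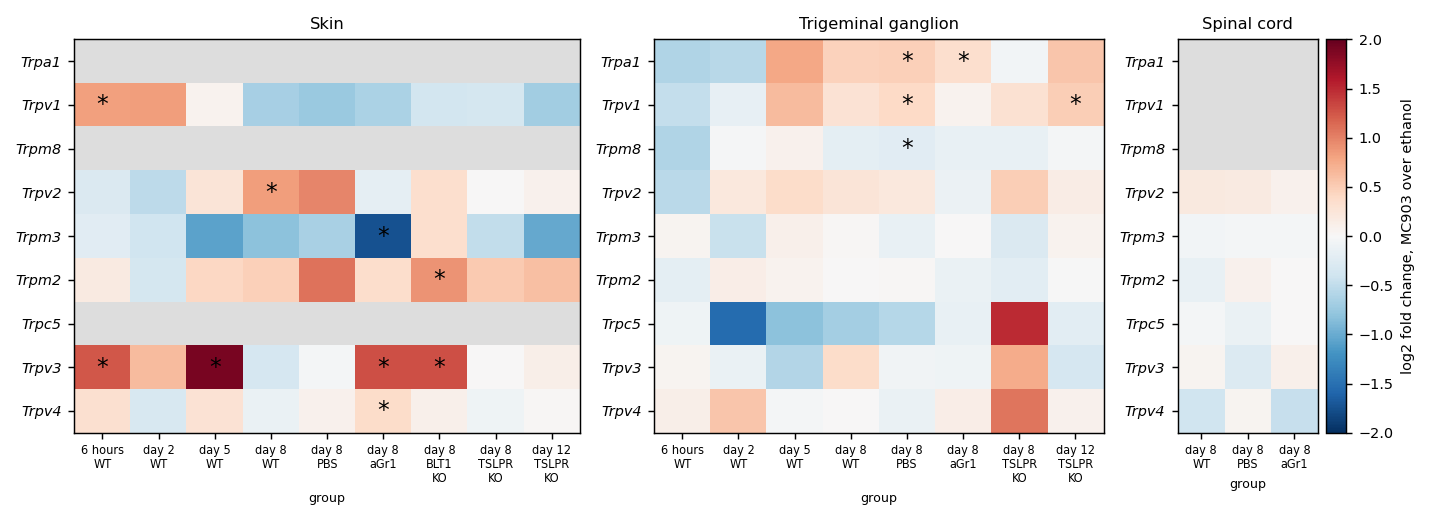
Log2 fold change with MC903 of each channel gene in each of the 20 comparisons, red for higher and blue for lower, with the scale ending at 2 in either direction; asterisks mark adjusted p-values past the tissue's threshold and grey marks genes whose mean is under 1 cpm in both groups. Trpv3 carries 4 of the 9 asterisks in skin, and Trpa1 and Trpv1 carry 4 of the 5 in ganglion.

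Other genes of the pathway were taken from fixed lists. Of 18 further TRP family genes, 14 to 16 were tested in each skin comparison. Trpc4, a receptor-operated channel, fell in 6 of the 9 skin comparisons, by 2.13 on the log2 scale (SE 0.58) in uninjected wild-type skin of day 8 and by 3.66 (SE 0.54) in BLT1.KO. Mcoln2, an endolysosomal channel, rose in 4, by 2.55 ± 0.36 in uninjected wild-type skin of day 8, where 4 of 16 rose and 2 fell, beside 23.4% of all genes called in either direction. With PBS the ganglion, where 3.36% of all genes were called, had 1 of 15 such genes higher, Trpm6 at 0.77 ± 0.16, and 2 lower.

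Enzymes that make or degrade channel ligands were a second list. Ptgs2, the inducible cyclooxygenase, rose in 8 of 9 skin comparisons, from 4.62 to 308 cpm (group means) in uninjected wild-type skin of day 8, a log2 fold change of 6.02 ± 0.24 (adjusted p = 4.86e-09, edgeR). Ptges, the prostaglandin E synthase, rose in all 9, by 1.62 ± 0.13 at day 1 and by 3.17 ± 0.17 at day 8. Duox1, which makes hydrogen peroxide, rose in 8. In uninjected wild-type skin of day 8, 7 of the 15 enzymes rose and 1 fell, where 23.4% of all genes were called, with a median log2 fold change of 0.61 against -0.03 over all genes, and at day 5 it was 5 and 1, where 14.9% were called, with a median of 0.66.

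Receptors and regulators coupled to the channels were the other list. Il31ra and Osmr, the subunits of the interleukin-31 receptor of itch neurons, both rose in uninjected wild-type mice of day 8, with PBS, with aGr1 and in TSLPR.KO at day 12. Il31ra went from 25.2 to 62.2 cpm in uninjected mice (group means, log2 fold change 1.30 ± 0.10) and from 16.1 to 35.8 cpm with PBS (1.15 ± 0.08), beside 0.47 for Trpa1 in either comparison. Tmem100, a membrane protein that tunes the joint activity of Trpa1 and Trpv1, rose by 0.62 ± 0.07 with PBS and by 0.64 ± 0.12 in TSLPR.KO at day 12. With PBS 5 of 20 such genes rose, where 3.36% of all genes were called, at a median log2 fold change of 0.08 against 0.00 over all genes. The list holds Il31ra, Osmr and Cysltr2, which the study had reported, together with Trpa1, among the ganglion changes of this series. This share is therefore not a test of the list. In skin Il4ra rose by 2.36 ± 0.20 in uninjected wild-type mice of day 8, where 9 of 21 rose and 1 fell, beside the same 23.4% of all genes. In cord Tmem100 fell, by 0.84 (SE 0.14) in uninjected mice and by 0.40 (SE 0.07) with aGr1.

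Genes whose level followed a channel gene most closely were ranked by Pearson's r over the libraries of a tissue, after centering each comparison and cohort. MC903 and ethanol libraries, depth and tissue composition are shared by these points, so r is a description. Over 60 skin libraries and 17489 genes, Trpv3 was followed by Plxnb1 (r = 0.918), Padi4 (0.908) and Wdr12 (0.902), and among members by Trpv4 (0.622). Trpv2 was followed by Fermt3 (0.854), Nrros (0.85) and Selplg (0.837), and its r with Trpm2 was 0.574. Trpm3 was followed by Csn3 (0.816), Trpm2 by Tcirg1 (0.793), Trpv4 by Tead3 (0.743) and Trpv1 by Mknk1 (0.730).

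Over 56 ganglion libraries and 16946 genes, Trpa1 was followed by Vwa5a (r = 0.872), Rspo2 (0.859) and Trpv1 (0.853), while its r with Trpm8 was 0.477. Trpv1 was followed by Bcam (0.895), Trpm8 by Tbc1d9 (0.943), Trpv2 by Cacnb3 (0.944), Trpm2 by Atcay (0.826), Trpm3 by Tnr (0.752), Trpc5 by Dcx (0.737), Trpv4 by Nudt22 (0.674) and Trpv3 by 1600020E01Rik (0.667). Over 27 cord libraries and 17235 genes, Trpm3 was followed by Akap6 (0.914), Trpv2 by Kdm4b (0.910), Trpv4 by Stab1 (0.834), Trpv3 by Gm10548 (0.781), Trpm2 by Wdr24 (0.742), and Trpc5 by Kcnh5 (0.842) and, less closely, by Trpm3 (0.816).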

How the data were processed

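Per the labels and the study's methods, poly(A) RNA from skin, trigeminal ganglion and spinal cord was sequenced as single-end 50 bp reads, and the authors deposited whole-number read counts per Ensembl gene for each library, not normalized. The submitters' processing notes name mm10, Bowtie2, TopHat, TopHat2 and HTSeq. Versions and the strand setting of the counting are not given in the sources used here. Lines of the count tables that name no gene held 9.00% to 32.2% of a library's counts and were left out.

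Symbols came from GENCODE M21, which named 45229 of 46078 genes. Groups came from the labels. Genes with at least 10 counts over a comparison's libraries were tested with edgeR 4.0.16 (quasi-likelihood test, TMM normalization, Benjamini-Hochberg adjustment over all genes tested, R 4.3.3), on the libraries of that comparison alone, with a cohort term for uninjected wild-type skin and ganglion of day 8. The threshold was 0.05 in skin and cord and 0.1 in ganglion. Effects with aGr1 or in a knockout were set against uninjected wild-type mice of day 8 by an interaction term. Levels between tissues were compared by exact two-sided permutation tests on log2 of cpm per kilobase of exon plus 0.01, adjusted over 27 pairs. Likeness used log2 of cpm plus 0.5, centered within each comparison and cohort, for genes with a mean of at least 1 cpm. The test script was tested on simulated data. Alternatives were DESeq2 1.42.0, other filters and normalizations, 1 fit per tissue, cohorts alone, other references, a replicate block and leaving out each library. Of 162 libraries, 143 were used and 19 left out. Of 218 pairs of libraries of 1 group, none was identical, with a smallest chi-square per gene of 2.70.

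Same-numbered libraries deviated from their group means together, with every correlation over 0.1, in ganglion at day 5 (3 pairs, r of 0.157 to 0.364) and in TSLPR.KO ganglion at day 12 (4 pairs, r of 0.235 to 0.627), and in no other comparison with 3 or more pairs. By the rule for named genes, each channel gene is given in each MC903 comparison, by its own value or within a range over comparisons or libraries. From the lists of related genes the text names at most 6 called genes a list, by adjusted p. The rule named the 3 genes closest to a member, of which the text gives the closest and, for some members, the others. The channel genes, lists and marker genes were chosen with earlier results of these data known. The values of 1 gene of the list of further TRP family genes are not reported here.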

Additional observations from a re-analysis of the deposited data

Results flagged for a closer look

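Of 147 groups of 4 to 10 libraries, 7 held a library farther from the others than Dixon's 95% limit, and chance gives about 1 in 20 groups. In ganglion, ethanol replicate 2 with aGr1 had 71.9 cpm of Trpv1 where the others had 45.97 to 48.2 cpm. Trpc5 was 14.5 cpm in MC903 replicate 2 of day 1 ganglion against 1.42 to 2.15 cpm in the others, and 13.05 cpm in ethanol replicate 1 against 1.79 to 3.38 cpm. Without the first of these its log2 fold change was -1.58 ± 0.67 and without the second 0.89 ± 0.82, neither past the threshold. In uninjected wild-type skin of day 8, Trpv2 was 18.5 cpm in MC903 library skin4 of cohort A against 10.5 to 12.6 cpm, and 10.7 cpm in ethanol library skin3 of cohort A against 5.12 to 6.97 cpm. Trpv2 passed without either, at 0.68 ± 0.19 and 0.999 ± 0.19 on the log2 scale. Trpm3 was 5.52 cpm in ethanol replicate 4 of day 1 skin against 1.83 to 2.32 cpm. Trpv4 was 3.52 cpm in uninjected ethanol cord replicate 1, the library low in Crlf2, against 1.44 to 1.84 cpm, and without it the log2 fold change was -0.09 ± 0.27.

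By the test of the difference between effects, the MC903 effect on Trpv3 in skin was larger than in uninjected wild-type mice by 1.64 with aGr1 and by 1.67 in BLT1.KO, on the log2 scale, and the first was lost in 13 of 19 fits without 1 library. Neither passed with PBS-injected mice as the reference or with the replicate block. The same test called Trpm8 in BLT1.KO at a fitted 6.19, which rests on 0, 2 and 15 counts in the MC903 libraries and 0 in the ethanol libraries and is no bound.

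Libraries left out of the comparisons held neuronal channels under a skin label. MC903 replicate 3 of day 2 skin had 27.9 cpm of Trpa1 and 79.4 cpm of Trpm8, where the ethanol libraries of that day had at most 0.684 and 0.951 cpm. Of 9 wild-type day 12 libraries labelled skin, 6 had more than 1 cpm of both genes, with up to 212 cpm of Trpm8 and 88.1 cpm of Trpa1. Of 9 labelled trigeminal ganglion, 6 had 1 cpm or less of both.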

How the results depend on the processing

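Over 286 refits of the called channel genes, none changed direction, 229 stayed past the threshold and 57 did not. Ganglion calls went from 5 to 3 with 1 fit per tissue, which called Trpa1, Trpv1 and Trpv2 at day 1 and none of the 5, and to 9 each with DESeq2, with no filter on low counts and with the replicate block. Skin interaction calls went from 3 to 0 with PBS-injected mice as the reference, to 1 with cohort B as the reference and to 0 with the replicate block. Leaving out 1 library gave 8 to 11 calls in skin, 4 to 7 in ganglion, 0 to 1 in cord and 2 to 4 skin interaction calls, and left 23 level differences past the threshold each time, as did the other settings. Leaving out libraries for interactions and levels was chosen after seeing the data. The causes were not tested.

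With the replicate block, 356 genes passed in TSLPR.KO ganglion of day 12 in place of 79. In PBS ganglion, where the mean r of same-numbered libraries was -0.03, 3479 genes passed in place of 796. Trpv4 with aGr1 and Trpv2 at day 8 no longer passed in skin under the block, where libraries shared only a number. In PBS cord, where same-numbered libraries deviated oppositely, the crossed pairing, chosen after seeing the data like the removal of several day 1 ganglion libraries and of the wild-type library low in Crlf2, called 955 genes and 0 channel genes. Low counts limit Trpa1, Trpm8 and Trpc5 in skin.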
